A study of Mus musculus with 4 samples.

Results

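In immature γδ thymocytes of fetal mice that lost the transcription factor c-Maf, 390 accessible regions lay at the ends of protein-coding genes and were called in both mutant libraries but in neither control library. They are named KO-only regions at gene ends here. They were chosen by the deposited peak calls themselves: on chromosomes 1 to 19 and X, peaks from any library sharing at least 1 bp were merged, a merged region was kept when a peak of both KO libraries and of neither WT library overlapped it, and it had to lie within 1 kb of either end of a protein-coding gene. The 390 regions were 7.34% of all 5311 KO-only regions (exact 95% interval 6.66 to 8.08, counting error only) and came from 171490 merged regions in all. Because the genotype contrast chose them, their presence in KO and absence in WT libraries is a description and was not tested. Absence means that no peak was listed, not that no read was present.

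The study mapped accessible chromatin by Omni-ATAC-seq, in which the Tn5 transposase inserts adapters into open DNA. The control group (WT) was Maf+/+ Il7rCre and the mutant group (KO) was Maf fl/fl Il7rCre, so both groups carried the Il7rCre allele, which drives Cre in cells that express the interleukin 7 receptor gene or descend from such cells. Each genotype had 2 libraries, numbered 1 and 2, from fetal thymi of embryonic day 17 to 18, backcrossed to C57Bl/6 for 5 generations (N5). Every library came from sorted CD4- CD8- CD3e+ TCRgd+ CD24+ CD45RBlo cells of pooled fetuses (15 to 17, in units of 1000), and whether replicates were separate pools is not stated in the labels.

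c-Maf is a basic leucine zipper factor that binds DNA elements with a TGCTGA core and is known for directing developing γδ T cells to produce interleukin 17. Nucleosome-free DNA around the start of a gene is the usual sign of an active or poised promoter, and such DNA is typically open in many cell types. Accessible DNA inside a gene or beyond its 3′ end can belong to enhancers or other regulatory elements. Close to a start it can also be part of the promoter.

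Where a KO-only region covered the DNA just before a gene start, the covered bases can be shown. Promoter windows from RefSeq (GRCm38.p6), running from 250 bases before to 50 bases after an annotated start, were overlapped by 53 of the 390 regions, and in 49 of these some of the 250 bases before the start were covered. The sequences below give those 250 bases, 5′ to 3′ on the strand of the gene, with the bases inside the KO-only region in capitals. The first pair is shown because the neighbouring genes Klrc2 (chr6:129660557-129660806, minus strand) and Klrc3 (chr6:129643289-129643538, minus strand) encode related receptors of natural killer and T cells and each had a region among the 12 highest ranked.
Klrc2: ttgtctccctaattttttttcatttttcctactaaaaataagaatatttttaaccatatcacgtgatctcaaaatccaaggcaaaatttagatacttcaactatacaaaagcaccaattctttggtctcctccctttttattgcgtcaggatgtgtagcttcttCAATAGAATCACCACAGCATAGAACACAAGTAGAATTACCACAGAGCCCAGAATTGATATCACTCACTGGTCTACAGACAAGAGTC
Klrc3: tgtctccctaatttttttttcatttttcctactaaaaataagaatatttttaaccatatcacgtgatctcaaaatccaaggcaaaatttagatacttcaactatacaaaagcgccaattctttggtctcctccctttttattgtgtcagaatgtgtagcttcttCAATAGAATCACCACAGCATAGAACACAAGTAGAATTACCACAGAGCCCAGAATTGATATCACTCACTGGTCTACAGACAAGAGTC
The windows of Klrc2 and Klrc3 were 98.3% identical, with 296 identical bases, 3 mismatches and 2 gap columns. In both, the covered bases contained the RUNX letters TGTGGT on the opposite strand. Reads from DNA this alike can be hard to place, and the handling of reads with several possible positions is not known from the sources used here.

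The next group is shown because the covered DNA reached the start itself or ended within 3 bp of it. Camk1 (chr6:113343923-113344172, minus strand) encodes a calcium and calmodulin dependent kinase, Tnfrsf18 (chr4:156026072-156026321, plus strand) encodes the co-stimulatory receptor GITR, and Fcer1g (chr1:171234350-171234599, minus strand) encodes the common Fc receptor γ chain.
Camk1: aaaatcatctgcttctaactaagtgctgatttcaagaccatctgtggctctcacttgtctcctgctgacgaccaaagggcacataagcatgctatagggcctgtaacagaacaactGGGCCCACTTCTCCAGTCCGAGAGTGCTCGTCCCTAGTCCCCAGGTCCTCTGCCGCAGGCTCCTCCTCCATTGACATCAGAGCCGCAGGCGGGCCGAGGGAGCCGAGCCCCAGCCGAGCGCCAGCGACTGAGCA
Tnfrsf18: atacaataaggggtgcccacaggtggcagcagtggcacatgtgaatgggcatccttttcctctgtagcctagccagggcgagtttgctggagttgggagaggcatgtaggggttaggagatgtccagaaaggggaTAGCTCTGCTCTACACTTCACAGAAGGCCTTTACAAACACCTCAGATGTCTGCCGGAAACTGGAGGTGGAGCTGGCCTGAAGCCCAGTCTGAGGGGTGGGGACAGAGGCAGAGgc
Fcer1g: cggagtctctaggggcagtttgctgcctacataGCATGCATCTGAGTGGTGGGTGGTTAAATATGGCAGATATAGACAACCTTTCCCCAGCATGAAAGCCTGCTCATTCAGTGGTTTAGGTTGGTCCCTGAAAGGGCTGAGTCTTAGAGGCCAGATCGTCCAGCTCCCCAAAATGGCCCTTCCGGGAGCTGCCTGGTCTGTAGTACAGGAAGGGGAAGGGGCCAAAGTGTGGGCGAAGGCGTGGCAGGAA
Gda (chr19:21472662-21472911, minus strand) encodes guanine deaminase, Lmo1 (chr7:109175150-109175399, minus strand) encodes a LIM-only transcriptional cofactor, and Gm46650 (chr19:58294579-58294828, minus strand) is a predicted gene. They show how differently composed these starts were.
Gda: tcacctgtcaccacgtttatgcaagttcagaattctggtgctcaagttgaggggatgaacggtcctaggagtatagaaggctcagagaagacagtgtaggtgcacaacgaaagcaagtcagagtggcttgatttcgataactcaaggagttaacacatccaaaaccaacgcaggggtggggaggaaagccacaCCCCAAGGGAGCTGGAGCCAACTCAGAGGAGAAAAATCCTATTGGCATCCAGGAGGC
Lmo1: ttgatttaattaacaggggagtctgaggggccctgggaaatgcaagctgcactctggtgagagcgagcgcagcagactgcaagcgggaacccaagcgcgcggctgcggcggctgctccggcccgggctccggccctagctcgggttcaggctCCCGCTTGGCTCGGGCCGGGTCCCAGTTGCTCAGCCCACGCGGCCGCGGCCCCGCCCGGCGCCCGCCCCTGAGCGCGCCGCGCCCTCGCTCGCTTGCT
Gm46650: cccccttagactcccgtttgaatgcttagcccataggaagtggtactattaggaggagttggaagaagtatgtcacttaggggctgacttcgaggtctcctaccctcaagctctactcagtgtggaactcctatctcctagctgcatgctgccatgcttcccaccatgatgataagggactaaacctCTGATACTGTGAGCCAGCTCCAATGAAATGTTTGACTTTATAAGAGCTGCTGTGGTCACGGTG
The covered bases of Lmo1 contained the GC box letters GGGCGG on the opposite strand. Those of Gm46650 contained the CCAAT box letters CCAAT and the RUNX letters on the strand shown. They held the TATA box letters TATAAA on the opposite strand only. The covered bases of Camk1 and Tnfrsf18 contained none of the 12 motifs searched.

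The libraries differed in how many peaks were called. WT 1 had 102718 peaks on chromosomes 1 to 19 and X, WT 2 had 132179, KO 1 had 130935 and KO 2 had 120141. Read totals were not analysed here, and these counts are not a measure of depth. KO 1 had more peaks than KO 2, for example, but they covered less sequence (25774726 against 26842832 bp). Of all 24715 merged regions at gene ends, 1.58% were KO-only, and 1.44% (357 regions) were WT-only, that is, the same rule with the genotypes exchanged. For comparison, regions were also shared by pairs of libraries of different genotype: 597 were called in WT 2 and KO 1 alone, 504 in WT 2 and KO 2, 199 in WT 1 and KO 1, and 127 in WT 1 and KO 2. The 390 KO-only regions were thus fewer than either mixed pair that held WT 2 and more than either that held WT 1. When each list was limited to its 102718 highest peaks by −log10 q, the number in WT 1, the order of the genotypes turned: 276 regions at gene ends were KO-only and 426 WT-only, and 143 of the 390 members were overlapped by a KO-only region of that setting.

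**Figure D1:**
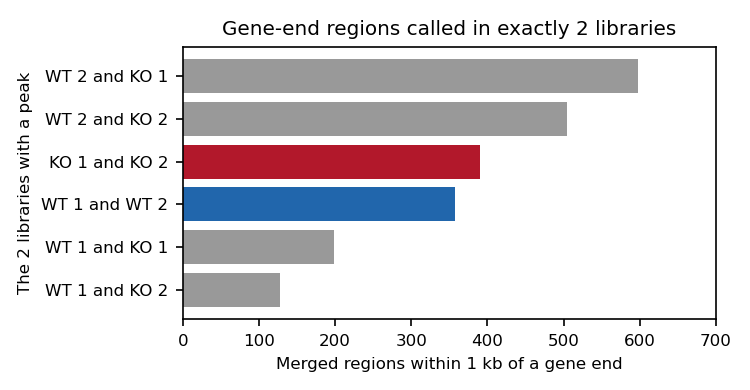
Number of merged regions within 1 kb of a protein-coding gene end (horizontal axis) that were called in exactly 2 of the 4 libraries, for each pair of libraries (vertical axis). The 2 KO libraries share 390 (red), the 2 WT libraries 357 (blue), and the mixed pairs (grey) range from 127 to 597.

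The targeted gene had WT-only regions and no KO-only region at its ends. The gene end nearest to these WT-only regions also had a region called in all 4 libraries within 1 kb. In Maf, a WT-only region of 708 bp, 8 bp from 1 end (chr8:115706902-115707609) reached 16.0 (WT 1) and 23.8 (WT 2) in −log10 q, and a second of 154 bp reached 15.0 and 15.9. The −log10 q is the authors' own measure of a peak's significance over background, corrected for many tests. It is not the size of the rise.

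The KO-only regions at gene ends were low and narrow peaks. Their median −log10 q was 4.04 in KO 1 (range 1.08 to 14.6) and 4.68 in KO 2 (range 1.06 to 19.9), and the median deposited fold enrichment over local background was 4.26 and 4.55. Ranked among all peaks of their own library, they stood at a median percentile of 23.2 in KO 1 and 17.3 in KO 2, whereas gene-end regions called in all 4 libraries stood at medians between 77.3 and 82.6. Their median width was 148 bp (84 to 432), against 390 bp for the 16205 gene-end regions called in all 4 libraries. In 252 of the 390 the percentile was higher in KO 1 than in KO 2.

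Few members were tall in both KO libraries. Both −log10 q values reached 5 in 71 of 390 regions (18.2%) and 10 in 5. The lower of the 2 percentiles had a median of 13.2 and a maximum of 51.5, and it passed 50 in 2 regions and 75 in none. Among the 357 WT-only regions at gene ends the median of the lower percentile was 12.7, but the maximum was 82.2, and 18 passed 50 and 3 passed 75. KO-only regions away from gene ends had a median of 13.3 and a maximum of 85.2 (n = 4921). The 3 sets were therefore alike at their medians, while both other sets held taller regions than any KO-only region at a gene end.

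**Figure D2:**
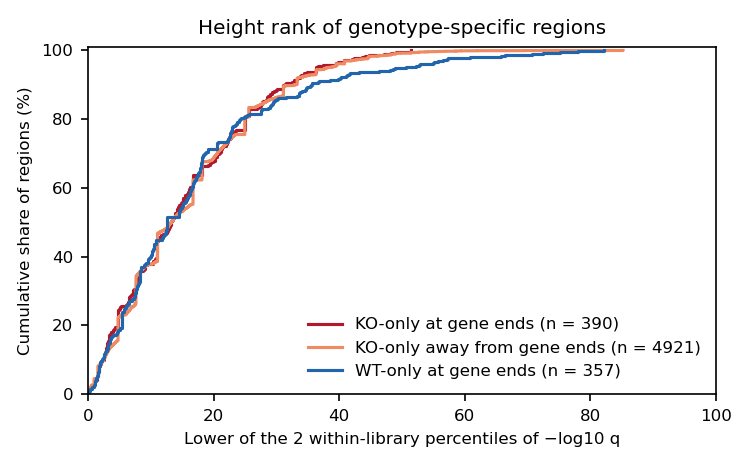
Cumulative share of regions (vertical axis, %) against the lower of the 2 within-library percentiles of −log10 q (horizontal axis) for KO-only regions at gene ends, KO-only regions away from gene ends and WT-only regions at gene ends. The curves lie close together up to about the median, and the KO-only curve at gene ends stops at 51.5 while that of WT-only regions goes on to 82.2.

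The 390 regions marked 416 of 21631 protein-coding genes, or 1.92%, and the WT-only regions marked 390 genes, or 1.8%. Most marked 1 gene (354 regions), and 36 lay at ends of 2 genes. Single marking was the rule for genes too: 406 had 1 region and 10 had 2. These 10 were Adap1, Basp1, Btn1a1, Flywch1, Klrc3, Mdm4, Nme6, Phyhipl, Tnfrsf10b and Ube2r2. Both kinds of region stood at the ends of 9 genes. These were 2.16% of the genes with a KO-only region, near the 1.8% of all genes that had a WT-only region, and 2.31% of the genes with a WT-only region, near the 1.92% of all genes that had a KO-only one.

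Members came from every chromosome used, from 9 on chromosome 12 to 32 on chromosome 7. As a share of the gene-end regions of the same chromosome they ranged from 0.917% on chromosome 8 to 2.44% on chromosome 16, with 2.42% on chromosome 6. Chromosome 6 held 30 members (7.69% of all) and 1242 of the 24715 gene-end regions. Of the 20 highest ranked regions it held 7, at Klrc2, Camk1, H2aj, Klrc3, Prss3, Rad18 and Caprin2. Klrc2 and Klrc3 are counted separately here, although their promoter windows were nearly identical. The X chromosome held 11 members, 2.82% of all.

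The killer lectin-like receptor genes Klrc2 and Klrc3 were both among the 12 highest ranked members. They encode NKG2C and NKG2E, receptors that pair with CD94 and bind a nonclassical major histocompatibility complex protein. At Klrc2 the region (chr6:129660463-129660642) had a −log10 q of 10.8 in KO 1 and 13.0 in KO 2, and no peak was called over it in WT 1 or WT 2. It lay inside the gene, 95 bp from the outermost annotated start, and the nearest WT peak, of WT 2 alone with a −log10 q of 1.95, was 683 bp away. At Klrc3 the region (chr6:129643203-129643374) had 14.6 in KO 1 and 9.25 in KO 2, with no peak at either gene end in WT 1 or WT 2. A second Klrc3 region, 572 bp outside the start, was lower, at 3.17 and 2.69. Over the 17440 bp from the Klrc3 to the Klrc2 region, the merged list held these 3 regions and no other. The nearly identical promoter windows overlapped 136 bp of the Klrc2 region and 136 bp of the higher Klrc3 region, and the rest was not compared. These 2 regions therefore cannot be taken as independent observations.

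Type 1 immunity genes were marked at Eomes and Hopx, 2 of 25 genes on a list of the interferon γ producing program (8.0%, against 1.92% of all protein-coding genes). WT-only regions marked as many of the list, Nkg7 and Tbx21 (8.0%, against 1.8%). Eomes encodes a T-box factor of cytotoxic and memory-like lymphocytes. Its KO-only region (chr9:118478531-118478743) lay 345 bp inside the gene from the start and had a −log10 q of 8.14 in KO 1 and 9.47 in KO 2. It stood beside DNA that was open in all libraries: the tallest peak at the ends of Eomes reached 7.22 (WT 1), 17.4 (WT 2), 12.4 (KO 1) and 26.4 (KO 2). That gene-end peak ranked at percentiles of 42.1, 59.7, 59.6 and 69.8 of its own library in the same order, so both WT values lay below KO 2, and WT 2 lay level with KO 1. Hopx, a small homeodomain cofactor of effector T cells, had a lower region 179 bp beyond its 3′ end, with 3.07 in KO 1 and 4.69 in KO 2, and none of the 4 libraries had another peak at its ends.

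Other T cell programs had few marked genes or none, and lists this short hold few marked genes at the share of 1.92% over all genes. The type 17 list, 31 genes of the interleukin 17 program, had none with a KO-only region and 1 with a WT-only region, Maf itself. Of 28 genes of the immature thymocyte and TCF1 list, 2 were marked (7.14%): Hhex, a homeobox factor of progenitors, at 5.45 in KO 1 and 4.61 in KO 2, and Ets1, a factor of lymphocyte development, at 1.63 and 2.14. Both were modest peaks, and at Ets1 a second region at a gene end, called in WT 2 and both KO libraries, was taller, at up to 9.60 in KO 1. Hhex also had gene-end regions called in all 4 libraries. Its tallest gene-end peak reached 9.20 (WT 1), 15.2 (WT 2), 5.48 (KO 1) and 12.8 (KO 2). Of 20 T cell receptor response genes 1 was marked (5.0%): Nfatc1, which encodes a calcium-dependent factor of activated T cells, had 3.15 in KO 1 and 6.64 in KO 2. Nfatc1 had gene-end regions called in all 4 libraries as well. The tallest peak at its ends reached 18.7 (WT 1), 47.2 (WT 2), 18.4 (KO 1) and 21.6 (KO 2). The immature thymocyte list and the receptor response list had no gene marked by a WT-only region.

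Lists of cell identity served to read the cell label. All 17 T cell identity genes found as protein-coding genes had a gene-end region called in all 4 libraries, as did 11 of 14 αβ thymocyte genes and 59.9% of all protein-coding genes. The same held for 6 of 15 B cell, 8 of 20 myeloid, 5 of 15 erythroid and 6 of 19 stromal genes, each a smaller share than over all genes. KO-only regions marked 1 gene each of the T cell (5.88%), B cell (6.67%) and myeloid (5.0%) lists, against 1.92% of all protein-coding genes. In lists this short, 1 gene alone makes up such a share. Thy1 of the T cell list had 2.27 in KO 1 and 3.36 in KO 2. Cd22 of the B cell list had 4.09 and 4.69, and Spi1 of the myeloid list had 8.01 and 3.82. Cd22 encodes an inhibitory lectin of B cells and Spi1 the lineage factor PU.1. Thy1 and Spi1 also had gene-end regions called in all 4 libraries. The tallest peak at the ends of Thy1 reached 27.9 (WT 1), 62.4 (WT 2), 55.3 (KO 1) and 47.6 (KO 2). At Spi1 it reached 8.04, 17.0, 13.8 and 13.0 in the same order. The ends of Cd22 held WT peaks too, of up to 5.44 in WT 1 and 3.55 in WT 2. No αβ thymocyte, erythroid or stromal gene was marked by a KO-only region. WT-only regions marked Ank1 of the erythroid list and Ccl25 of the stromal list, and no gene of the other identity lists. Whether other cells in the sort play a part in any KO-only region was not tested.

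Cytokine and chemokine receptors and ligands were marked at 4 of 209 genes (1.91%, against 1.92% of all protein-coding genes), and 4 others had a WT-only region. Tnfrsf18 stood highest: its region (chr4:156026207-156026319) ended 3 bp before the start and had a −log10 q of 10.2 in KO 1 and 7.85 in KO 2. The nearest WT peak was 2420 bp away, and no library had another peak at the ends of the gene. Tnfrsf10b, a death receptor gene, held 2 regions close together, the first at 4.13 and 5.77 and the second at 4.13 and 1.79. Ifnb1, the interferon β gene, had 3.17 in KO 1 and 11.8 in KO 2. Tnfrsf14, which encodes the receptor HVEM, had 1.81 and 6.96, so the KO libraries differed widely for both of these genes. Tnfrsf10b and Tnfrsf14 each also had a gene-end region called in all 4 libraries.

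Further immune genes were picked after their values were seen and are given as examples only. Fcer1g had 5.28 in KO 1 and 5.76 in KO 2, and the nearest WT peak was 1649 bp away. Cd96, a receptor of T and natural killer cells, had 4.0 and 3.24 beside a tall shared region, whose −log10 q was 44.3 (WT 1), 80.5 (WT 2), 57.7 (KO 1) and 60.2 (KO 2). Cd80, Ccrl2, Ackr4, Tlr5 and Naip1 were also marked, at values between 2.27 and 6.15. At Tlr5 a WT 2 peak at a gene end reached 7.39, and Ccrl2 had 2 gene-end regions called in all 4 libraries. Cd80, Ackr4 and Naip1 had no WT peak at their ends. At Cd96 the KO-only region was thus a minor peak next to a major one that all 4 libraries shared.

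Large gene families other than the olfactory receptors were marked at shares near that over all genes. Zinc finger genes were marked at 8 of 466 (1.72%; Zbtb48, Zfp618, Zfp536, Zfp773, Zbtb7a, Zbtb7c, Zfp3 and Zfp385a), solute carriers at 6 of 375 (1.60%; Slc15a1, Slc17a9, Slc5a9, Slc17a6, Slc38a3 and Slc39a5) and ubiquitin ligases and deubiquitinases at 5 of 308 (1.62%; Rnf214, Fbxl5, Fbxl14, Rnf170 and Rnf157). WT-only regions marked 3, 10 and 12 genes of these lists. Olfactory, vomeronasal and taste receptor genes, which are silent in most tissues, were marked at 2 of 1516 (0.132%; Olfr1257 and Olfr1368), and 40 of the 1516 had a gene-end region called in all 4 libraries.

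Smaller families had few marked genes each. Rap1a and Rap1b, which encode small GTPases that control integrin adhesion, were both marked. Rasgrp2, an exchange factor for Rap proteins, had 5.15 in KO 1 and 7.47 in KO 2, against 3.08 and 4.69 at Rap1a and 2.41 and 2.82 at Rap1b. Homeobox genes had 4 of 105 (Pbx2, Dlx3, Hoxd8 and Lhx8), channels 3 (1.86%; Kcnq3, Kcns3 and Kcnip1), collagens, laminins and integrins 2 of 86 (Lama4 and Col14a1), histone genes 2 of 97 (H2aj and H3c15) and cadherins 1 of 92 (Pcdha7). Among 45 chromatin regulators Dnmt1, the maintenance DNA methyltransferase gene, had 5.14 in KO 1 and 4.69 in KO 2, and Brd2, a bromodomain protein gene, had 6.00 and 2.76. No member marked a cytosolic ribosomal protein (83 genes), keratin (109), MAP kinase cascade (76), cell cycle (36) or MAF, CNC and AP-1 gene (24). With so few genes in each list, these shares are descriptions and none was set apart from the share over all genes.

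**Figure D3:**
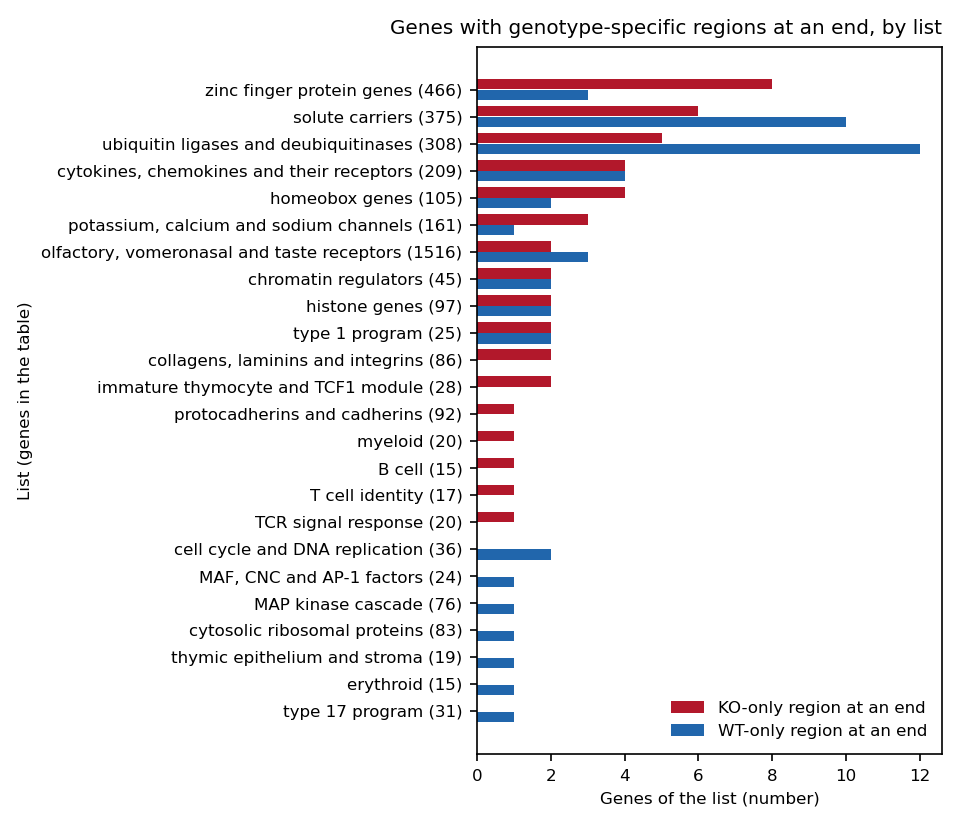
Number of genes (horizontal axis) of each list (vertical axis, list size in brackets) with a KO-only region (red) or a WT-only region (blue) within 1 kb of an end. The longest red bar is 8 zinc finger genes, the longest blue bar is 12 ubiquitin ligases and deubiquitinases, and not every list is shown.

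The 20 highest ranked regions, by the lower of the 2 percentiles, were led by Gm46650, with a −log10 q of 9.33 in KO 1 and 13.2 in KO 2. Below it came Klrc2 and then Gm6460, a predicted gene, at 13.6 and 11.9. Camk1 had 13.3 and 11.8 at a region over its start (chr6:113343900-113344056), 5046 bp from the nearest WT peak. Gm5861, E230025N22Rik, Gm7592, Spon1, Tex19.2 and H2aj followed, with values between 6.86 and 14.4. Eomes and Klrc3 were next, then Prss3, Tspyl4, Rad18, Gspt2, Caprin2, Itprip, Hacd2 and Gm31160. Rad18, a DNA damage ubiquitin ligase gene, showed the widest gap in −log10 q between libraries among the 20. It had 6.20 in KO 1 and 19.9 in KO 2, the highest KO 2 value of all members. By within-library percentile Gm31160 was farther apart, at 61.1 in KO 1 and 36.3 in KO 2, against 39.5 and 62.9 at Rad18. Several of these genes belong to duplicated families. The promoter windows of Gm5861 and Gm6460 were 82.0% identical, with 269 identical bases, 3 mismatches and 56 gap columns. Their KO-only regions lay outside these windows, 484 bp (Gm5861) and 373 bp (Gm6460) inside the gene from the start. How alike the DNA of the regions themselves is was therefore not measured.

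**Figure D4:**
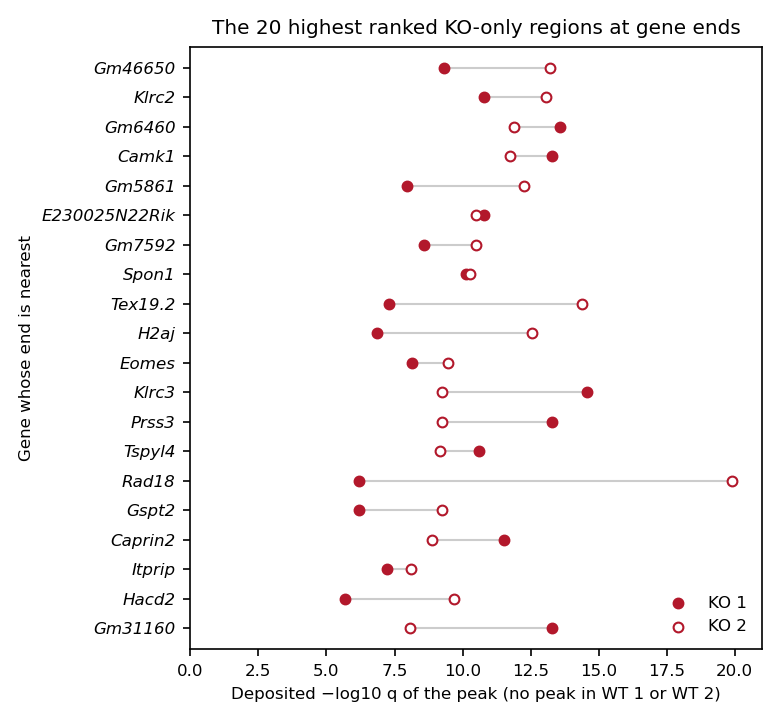
Deposited −log10 q (horizontal axis) in KO 1 (filled) and KO 2 (open) of the 20 KO-only regions with the highest lower within-library percentile, named by the nearest gene (vertical axis). No WT library had a peak over any of them, and Rad18 shows the widest spread in −log10 q, from 6.20 to 19.9.

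Values repeated between regions. In KO 1, 126 of the 390 regions had a −log10 q that another member also had, and in KO 2 132 did. At the low end, Atp5l had 3.25 in KO 1 and 1.06 in KO 2, and Sp6, a zinc finger factor gene, had 1.08 and 1.79. The 5 widest members lay at Tmigd1 (432 bp), Fah (424 bp), Gm30990 (382 bp), Pdia5 (381 bp) and Angptl1 (380 bp). None of these was among the 20 highest ranked: Fah had 1.53 and 4.74, Tmigd1 2.65 and 5.06.

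Along the gene, the regions were spread rather than centred on the start. The strand was known for 298 members, and the nearest end was a gene start in 210 of these (70.5%, exact 95% interval 64.9 to 75.6) and a 3′ end in 88 (29.5%). Among gene-end regions called in all 4 libraries 86.6% were nearest a start, and among WT-only regions 71.6%. A KO-only region covered its gene end in 35 of 390 cases (8.97%), lay inside the gene in 200 (51.3%) and outside it in 155 (39.7%). Regions called in all 4 libraries covered the end in 55.4% and WT-only regions in 5.60%. At starts alone, 25 of 210 members covered the start (11.9%), 77 lay upstream and 108 downstream. The start was covered by 6.53% of WT-only regions and 63.8% of shared regions. The rule kept regions within 1 kb of a gene end, so these positions describe only that window, the same for all sets. No KO-only region may share a base with a WT peak, so none could cover a start lying in a WT peak. The same held for WT-only regions and KO peaks. How far this rule sets the low shares over gene ends and starts was not tested. The sets differed in width (medians of 148, 150 and 390 bp for KO-only, WT-only and shared regions), and the part of width in these shares was not tested.

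**Figure D5:**
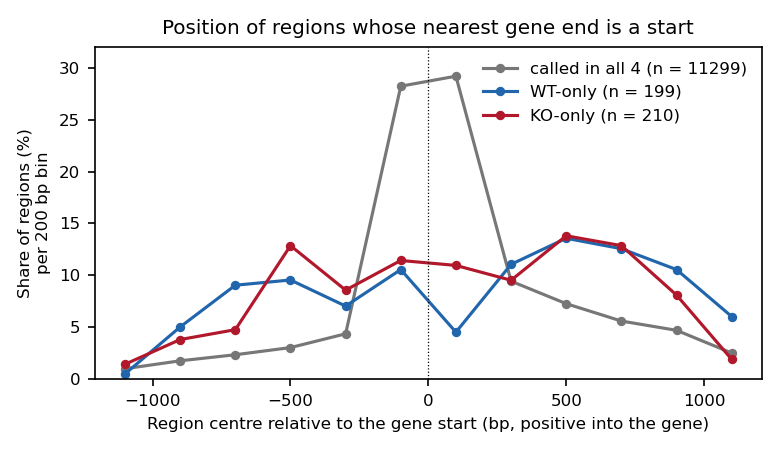
Share of regions (vertical axis, %) in bins of 200 bp by the distance of the region centre from the gene start (horizontal axis, bp, positive into the gene), for regions whose nearest gene end is a start. Regions called in all 4 libraries (n = 11299) peak at the start. KO-only (n = 210) and WT-only regions (n = 199) are spread over the whole window, with no bin above 13.8% in either. By rule, neither kind can overlap a peak of the other genotype.

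Many members stood next to DNA that was open in all libraries. The nearest gene end also had a region called in all 4 libraries for 175 of 390 members (44.9%, 39.9 to 49.96), against 220 of 357 WT-only regions (61.6%, 56.4 to 66.7). At starts the share was 125 of 210 (59.5%) and at 3′ ends 17 of 88 (19.3%). A WT peak lay within 100 bp of 27 members, within 500 bp of 178 and within 1000 bp of 231, and the median gap to the nearest WT peak was 610.5 bp (2 to 289409). A WT peak within 10 kb was missing for 35 members, Prss3 among them, with 48416 bp. Where the nearest end did have a shared region, its tallest peak had a median percentile of 74.7 in WT 1, 81.0 in WT 2, 81.5 in KO 1 and 78.7 in KO 2 (174 ends). Over all 15007 ends with a shared region the medians were 84.6, 88.4, 88.5 and 87.0, so the shared peaks beside members ranked lower in every library, WT libraries included.

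For 128 members, neither end of the gene had a region called in all 4 libraries. A WT peak could still be near, as at Gm5861, 301 bp away, and Gm6460, 371 bp away. The highest ranked of these were Gm46650, Klrc2, Gm6460, Camk1, Gm5861, E230025N22Rik, Gm7592, Tex19.2, Klrc3 and Prss3, so 10 of the 13 highest ranked members belonged to genes without such a region. Of the 416 marked genes, 278 (66.8%) had a shared region at an end, against 59.9% of all protein-coding genes.

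Members also lay in short runs, with 17 groups of neighbours at most 50 kb apart. Besides the Klrc run, Dcpp1 and Dcpp3, which encode secretory proteins, were 36700 bp from outer edge to outer edge, with values of 4.13 and 9.25 at Dcpp1 and 4.13 and 3.66 at Dcpp3. Their promoter windows were 95.1% identical. The predicted genes Gm13272, Gm13278 and Gm13279 on chromosome 4 had a region each in 17658 bp, at 2.89 and 4.86, at 11.8 and 4.31, and at 6.57 and 7.69. That run also held 6 regions called in all 4 libraries, in contrast to the Klrc run. Flywch1, a zinc finger gene, had 2 regions near its 3′ end, at 5.16 and 6.70 and at 3.65 and 5.85, with Srrm2 as neighbour, and Spi1 lay in a run with the proteasome gene Psmc3.

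The 1 kb limit cut through a continuous set. Just inside it were Sult1a1, at 997 bp with 10.8 in KO 1 and 5.77 in KO 2, and Rasgrp2, at 1000 bp. Just outside were Fgf7, at 1002 bp with 5.14 and 6.89, and Dennd2a, at 1005 bp with 4.48 and 1.02.

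The base composition of the 55 promoter windows overlapped by members, of 53 genes, resembled that of shared promoters in GC content but not in CpG content. Their median GC content was 61.0%, against 56.7% over all 21045 windows and 62.0% over the 9604 windows overlapped by a region called in all 4 libraries. Their median ratio of observed to expected CpG was 0.579, against 0.574 over all windows and 0.797 over the shared ones. Motifs were counted as exact letters on both strands, and matches of different motifs were counted separately where they overlapped. The whole window was searched, including bases outside the KO-only region. The MAF core TGCTGA stood in 9.09% of member windows, 18.1% of all windows, 21.9% of the 32 windows overlapped by a WT-only region and 14.3% of the shared ones. RUNX letters TGTGGT stood in 20% of member windows, 9.38% of WT-only, 11.7% of shared and 14.7% of all windows. The member windows with these letters include 2 of Klrc2 and 1 of Klrc3, which hold nearly the same sequence. At Tmem121, Mpp4 and 1700113H08Rik the RUNX letters before the start lay outside the KO-only region. AP-1 letters TGANTCA stood in 10.9% of member windows, 12.5% of WT-only, 4.04% of shared and 7.04% of all windows. TCF/LEF letters CTTTGA stood in 3.64% of member windows, 25% of WT-only, 11.0% of shared and 14.4% of all windows. The T-box letters GGTGTGA stood in no member window, 6.25% of WT-only, 3.11% of shared and 3.67% of all windows. With 55 windows, 1 window is worth nearly 2 percentage points, a match is not a bound site, and most members lay outside these windows.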

How the data were processed

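Omni-ATAC-seq peak lists of 2 Maf WT and 2 Maf KO libraries were used. Per the submitters' processing notes, the genome builds were GRCm38 and mm10 and the tools MACS2 2.1.1, Bowtie2 2.3.4.1, deepTools 3.1.2, Picard, bedtools, cutadapt and Trim Galore. Their settings, the Tn5 shift and the treatment of duplicates and multi-mapping reads were not given in the sources used here. Each library has its own deposited narrowPeak list, so peaks were called library by library. The deposited columns are a whole-number score, a fold enrichment (ratio of summit to local background), −log10 p, −log10 q and the summit offset. No deposited peak had a q above 0.1. The authors' values served only to rank, filter and describe peaks within a list.

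Peaks were merged with Python 3.11.15 (pandas 2.3.3, numpy 2.4.6), and intervals are exact Clopper-Pearson 95% intervals (scipy 1.17.1), which cover counting error only. Merging and distances were tested on simulated data. Gene ends came from a RefSeq table of GRCm38 without strand or exons, so exon, intron and UTR positions are not given. Strand and promoter sequences came from RefSeq promoter windows (GRCm38.p6) for 17274 of 21631 protein-coding genes. Positions are 1-based.

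No test was run: the genotype contrast chose the members, peak lists hold no value for a library without a peak, and 2 against 2 libraries cannot give an exact p below 0.333. The members and the 28 gene lists were chosen with earlier results of these data known. Named were the 20 highest ranked members, marked list genes (at most 10 a list), genes with 2 members, the 5 widest members, the 10 highest ranked members at genes without a shared end, the members and regions at the 1 kb limit and the 2 lowest members; the immune examples and runs were picked after their values were seen. Some genes and lists are not reported here. Across 14 alternative settings the counts were recomputed.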

Additional observations from a re-analysis of the deposited data

Results flagged for a closer look

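Chromosome Y was outside the comparisons. Of 175 merged regions there, 12 were KO-only, 1 was WT-only and 52 were called in all 4 libraries, and the libraries listed 82 (WT 1), 93 (WT 2), 134 (KO 1) and 95 (KO 2) peaks on it. These 12 KO-only regions came up because they lie in data that the comparisons do not use. The sex of the pooled fetuses is not given in the labels, and its part in these calls was not tested.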

How the results depend on the processing

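The count of 390 KO-only regions at gene ends stayed within 1.5 times with −log10 q minimums of 2 and 5, equal numbers of peaks, another merging rule and autosomes alone, but the regions themselves changed: 71 of the 390 were overlapped with the minimum of 5 (286 regions) and 143 with equal numbers of peaks (276 regions). With equal numbers of peaks WT-only regions outnumbered KO-only ones, 426 to 276. Counts of KO-only and WT-only regions, the KO-only percent at gene ends and the genes marked were 244, 196, 4.59% and 256 within 500 bp, 615, 580, 11.6% and 673 within 2 kb, and 679, 553, 12.8% and 750 with all genes. WT-only regions numbered 203 where −log10 q had to reach 5. With at least 0.5 of a region covered, 8.09% of KO-only regions were at gene ends and 75.7% of members with strand at a start. The share of members beside a shared region was 28.7% with the minimum of 5, 33.0% with equal peaks, 37.98% with 0.5 covered, 36.9% within 500 bp, 55.3% within 2 kb and 35.9% with all genes. Leaving out 1 library gave 576 (without WT 1) to 1865 (without KO 2) KO-only regions, 1570 without WT 2 and 1163 without KO 1; 756 to 1706 WT-only regions; 617 to 1865 genes; 7.89% to 8.50% at gene ends; 71.4% to 74.97% at starts; and 47.1% to 52.1% beside a shared region. Members with no WT peak within 500 bp, a setting chosen after seeing the data, numbered 212, with 56.1% at starts and 14.6% beside a shared region. The cause of these shifts was not tested, beyond fewer libraries having to meet the rule. No paired analysis was possible because no result comes from a test and peak lists hold no value for libraries without a peak.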
